A study of Mus musculus with 6 samples.

Results

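The 10 genes described here encode the 4 Notch receptors (Notch1 to Notch4), 4 of their ligands (Jag1, Jag2, Dll1 and Dll4) and the target gene products Hes1 and Hey1. They were taken by symbol from a count table of 55571 gene entries, and all 10 had exactly 1 entry. The samples were E0771 cells, a mouse mammary carcinoma line, in 2 groups of 3 RNA-seq libraries each. The Malt1-WT group expressed wild-type Malt1, which encodes a paracaspase acting upstream of NF-kB, and the Vector control group carried the vector. Neither group received a stimulus. The sources used here do not give how Malt1 was introduced, which promoter drove it, or whether each line was a pool or a clone. The comparison asks which Notch genes differ in RNA level between cells with introduced Malt1 and vector cells.

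Notch receptors are single-pass membrane proteins that are activated by Jagged or Delta-like ligands on a neighbouring cell. After ligand binding, ADAM proteases and then gamma-secretase cut the receptor, and its intracellular part enters the nucleus, where it joins the DNA-binding protein RBPJ and a Mastermind coactivator. Genes of the HES and HEY families, which encode transcriptional repressors, are the best known targets. In the mammary gland the pathway is known for its part in luminal cell fate and in carcinoma.

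Total counts per library were 17601656 to 20543778. Malt1 averaged 305 ± 6.49 CPM in Malt1-WT and 30.0 ± 1.32 CPM in Vector control (SD, n = 3 each), where CPM is the count relative to library size after TMM scaling. Of the mammary epithelial and carcinoma markers, 3 of 10 were abundant enough to test. Krt8 averaged 59.7 ± 1.83 CPM in Malt1-WT and 68.6 ± 2.31 CPM in Vector control (SD, n = 3 each), and Epcam 6.23 ± 1.01 and 6.31 ± 0.319 CPM. Esr1, the other tested marker, had 68 counts over the 3 Malt1-WT libraries and 97 over the 3 Vector control libraries. In the edgeR test described below, Krt8 was lower (log2 fold change -0.20, adjusted p = 3.16e-04). Epcam (-0.02, edgeR adjusted p = 0.92) and Esr1 (-0.43, edgeR adjusted p = 0.233) did not pass. Cdh1, Krt18 and Krt7 stayed below 1 CPM in every library and Krt5 was at 0, while the mesenchymal receptor gene Pdgfrb averaged 224 ± 8.6 CPM in Malt1-WT and 151 ± 6.02 CPM in Vector control (SD, n = 3 each). The epithelial label thus rests on few of its markers. Whether a group's libraries stem from independent cultures is not stated, so p-values measure only the spread between these libraries, which may be technical.

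Of the 10 genes, 8 passed the filter on low counts and were tested, and 6 were higher and 2 lower in Malt1-WT at an adjusted p under 0.05 (edgeR quasi-likelihood test, adjusted over 13594 genes). Across all tested genes 61.2% were called, 31% as higher and 30.2% as lower. That even split depends on the scaling, since 4210 genes were higher and 4110 lower with TMM, and 3528 were higher and 5006 lower with library totals alone. Notch3 and Dll4 reached the filter's minimum in all 3 Malt1-WT libraries and in 0 Vector control libraries. These 2 thus had to be higher in Malt1-WT to be tested at all. The count of 8, and the median, 2-fold count and overlap given next, include these 2 and are descriptions. The median log2 fold change of the 8 was 0.81, and that of all tested genes was -0.00. A change of at least 2-fold was called for 4 higher genes (Notch3, Notch4, Dll1 and Dll4) and for 1 lower gene (Notch1). Notch4 lies at that limit, with a log2 fold change of 0.83 to 1.09 under the alternatives. Of all tested genes, 13.1% were called at that size, 8.35% as higher and 4.77% as lower. The libraries of the groups did not overlap for any of the 8, as was the case for 64.4% of all tested genes. In the authors' deposited table, Dll4 was the single one of the 10 with an adjusted p under 0.05 (0.0159). Over that whole table, 630 of 55571 genes had an adjusted p under 0.05. The score in that table is 0 for all 50005 entries with an absolute log2 fold change under 1. It is 0 for no entry at or above that size. Its p-values thus appear to test for a log2 change beyond 1, while the edgeR test here asks for a change beyond 0.

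**Figure D1:**
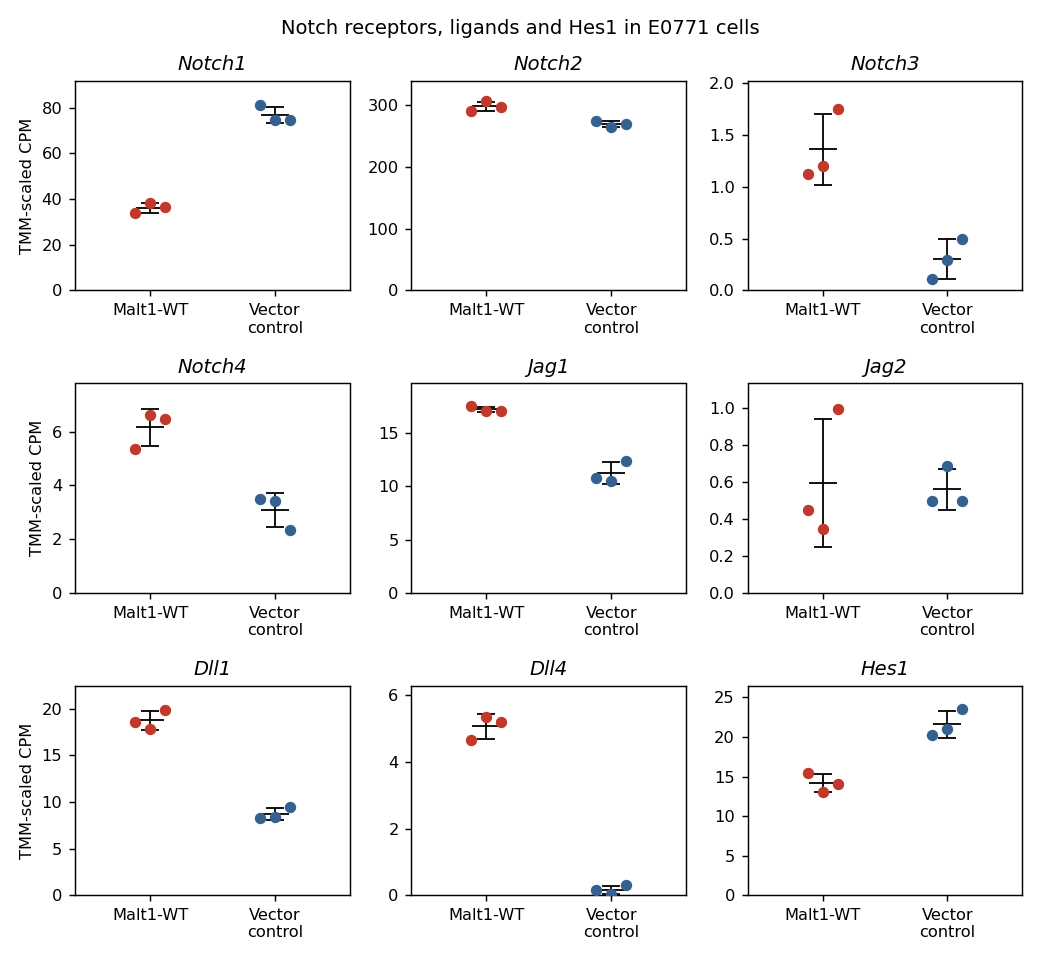
TMM-scaled CPM of 9 Notch genes in each library (points), with the mean and SD of the 3 libraries of a group (black bars), Malt1-WT on the left and Vector control on the right of each panel. Jag2 is the only panel in which the groups overlap, and Hey1, at 0 counts in every library, is not drawn.

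**Figure D2:**
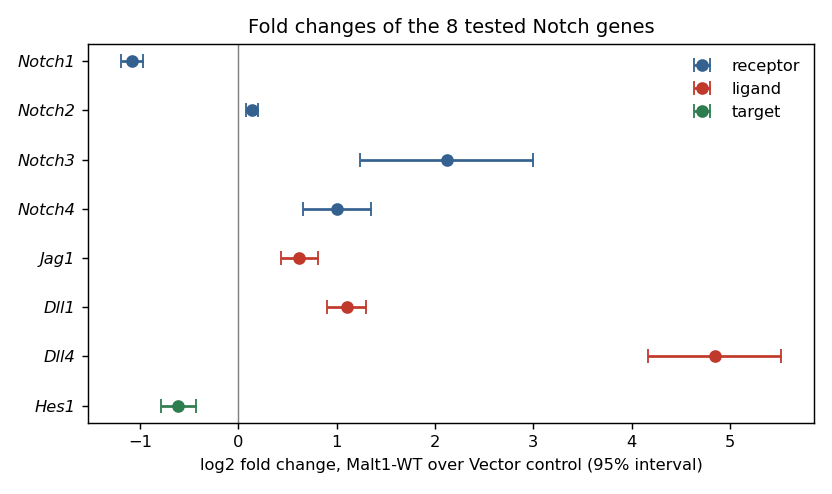
Log2 fold change of Malt1-WT over Vector control (points) with its 95% interval (bars) for the 8 tested Notch genes, coloured by role. The tested ligand genes Jag1, Dll1 and Dll4 lie above 0, from 0.62 to 4.84, and Notch1 and Hes1 lie below 0, at -1.08 and -0.61.

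The 10 genes lie on chromosomes 2, 3, 12, 16 and 17 of GRCm38, with Dll4 at chr2:119325784-119335962 (plus strand), Notch1 at chr2:26457903-26516663 (minus strand), Notch2 at chr3:98013527-98150361 (plus strand), Notch4 at chr17:34564268-34588503 (plus strand), Notch3 at chr17:32120820-32166852 (minus strand), Dll1 at chr17:15367354-15376872 (minus strand), Jag1 at chr2:137081456-137116644 (minus strand), Jag2 at chr12:112907819-112929776 (minus strand), Hes1 at chr16:30064384-30067796 (plus strand) and Hey1 at chr3:8663359-8667256 (minus strand) in GENCODE M21. Promoter windows from RefSeq on GRCm38.p6 were given for 8 of the 10 genes, in 9 windows, and not for Hes1 or Hey1. In the 250 bases before the start, the NF-kB consensus site was matched for 4 genes, Notch2, Notch4, Dll1 and Dll4, on either strand. Dll1 had 2 windows. Its match lay in the window at chr17:15375824-15376073, inside the GENCODE M21 gene. The Dll1 window at chr17:15376933-15377182, which lies before that gene, held no NF-kB match. Of 32851 windows of 250 bases, 7.25% held an NF-kB match. That share is over all windows, whatever their G and C content, and the site itself is rich in G and C. The RBPJ core TGGGAA was matched in 0 of the 9 windows, where 21.6% of all windows held it, and the E-box CACGTG in 0, where 6.02% held it. The N-box CACNAG was matched for 4 genes, Notch1, Notch2, Notch3 and Dll4, where 36.7% of all windows held it. A match is a string of letters and does not show that a factor binds there.

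Higher genes were found with and without a match: Notch3 and Jag1 had none. The windows of Dll4, Notch4 and Notch2 are shown as examples with a match and that of Notch1 as one without, from base -250 to base -51 before the start, 5′ to 3′ on the strand of the gene. Capitals mark the NF-kB match, which did not overlap any other motif searched.
Dll4 (chr2:119325534-119325733, plus strand): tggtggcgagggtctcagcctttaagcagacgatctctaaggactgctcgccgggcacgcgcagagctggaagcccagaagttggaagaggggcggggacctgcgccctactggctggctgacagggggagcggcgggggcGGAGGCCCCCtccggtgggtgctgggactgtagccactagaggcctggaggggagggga
Notch4 (chr17:34564045-34564244, plus strand): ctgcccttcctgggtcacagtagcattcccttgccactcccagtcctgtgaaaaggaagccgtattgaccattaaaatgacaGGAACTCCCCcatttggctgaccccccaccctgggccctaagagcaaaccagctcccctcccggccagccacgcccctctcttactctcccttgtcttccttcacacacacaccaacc
Notch2 (chr3:98013288-98013487, plus strand): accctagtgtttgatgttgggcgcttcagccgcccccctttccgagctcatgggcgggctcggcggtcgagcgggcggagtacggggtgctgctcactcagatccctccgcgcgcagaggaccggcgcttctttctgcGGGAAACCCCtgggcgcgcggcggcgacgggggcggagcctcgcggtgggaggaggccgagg
Notch1 (chr2:26503873-26504072, minus strand): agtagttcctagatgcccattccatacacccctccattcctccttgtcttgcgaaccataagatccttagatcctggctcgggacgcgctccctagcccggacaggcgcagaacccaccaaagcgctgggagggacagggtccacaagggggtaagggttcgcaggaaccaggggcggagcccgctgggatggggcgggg
The match lies at bases -109 to -100 for Dll4, -168 to -159 for Notch4 and -112 to -103, on both strands, for Notch2. In the Dll1 window inside the gene the match lies at -81 to -72. The same stretch of that window holds 103 bases of Dll1 exon in GENCODE M21 and is not printed. The stretch shown for Notch1 lies inside the GENCODE M21 gene, before a RefSeq start within it, and the 4 stretches overlap 0 bases of their own gene's exons. All of these windows were rich in G and C, with 65.6% for Dll4, 58.4% for Notch4, 72% for Notch2 and 66% for Notch1, against a median of 52.4% over all windows.

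All 3 tested ligand genes were higher in Malt1-WT, and Dll4 reached the filter's minimum only in that group. Dll4, whose product is a Delta-like ligand best known from sprouting blood vessels, had the largest fold change of the 8 tested genes. It had 83, 107 and 89 counts in the Malt1-WT libraries, against 3, 1 and 6 in the Vector control libraries. It averaged 5.06 ± 0.37 CPM in Malt1-WT and 0.171 ± 0.125 CPM in Vector control (SD, n = 3 each). The log2 fold change was 4.84 (SE 0.338, 95% interval 4.16 to 5.52, edgeR adjusted p = 6.18e-18), a 28.6-fold difference. Its size rests on 10 counts over the 3 Vector control libraries and was 5.52 on the log2 scale without Vector control replicate 3. Dll4 was thus a gene near the detection limit in vector cells and a low but clearly counted gene in every Malt1-WT library.

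Dll1, which encodes the founding mammalian Delta-like ligand, had 333, 356 and 338 counts in the Malt1-WT libraries, against 151, 170 and 191 in the Vector control libraries. Its mean was 18.7 ± 1.00 CPM in Malt1-WT and 8.73 ± 0.668 CPM in Vector control (SD, n = 3 each). The log2 fold change was 1.10 (SE 0.099, edgeR adjusted p = 6.23e-14), and every Malt1-WT library stood above every Vector control library. In the GENCODE M21 annotation, the antisense transcript A930024N18Rik overlaps 20.5% of the exon length of Dll1. It had 5 counts over the 3 Malt1-WT libraries and 6 over the 3 Vector control libraries, so few reads were assigned to it. Of the exon length of Notch1, the opposite-strand transcript 0610009E02Rik overlaps 7.5% and Gm13568 2.91%, while single opposite-strand transcripts overlap 6.03% for Notch3 and 5.56% for Dll4. Of the exon length of Notch2, Gm42820 on the same strand overlaps 5.02%. Gm42820 had 23 counts over the 3 Malt1-WT libraries and 21 over the 3 Vector control libraries.

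Jag1 encodes a Jagged ligand that is common in epithelia and stroma. It had 312, 343 and 293 counts in Malt1-WT and 195, 213 and 249 in Vector control, or 17.2 ± 0.186 CPM and 11.2 ± 1.03 CPM (SD, n = 3 each). It rose by a log2 fold change of 0.62 (SE 0.096, edgeR adjusted p = 1.71e-07), a smaller change than that of Dll1, and the groups did not overlap. Jag2, the other Jagged ligand gene, had 8, 7 and 17 counts in Malt1-WT and 9, 14 and 10 in Vector control. It did not pass the filter on low counts and was not tested. The single high library, Malt1-WT replicate 3, was at 0.994 CPM, and the groups overlapped.

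The receptor genes moved in different directions. Notch1, which encodes the receptor most studied in epithelia and T cells, had 606, 766 and 627 counts in the Malt1-WT libraries, against 1468, 1524 and 1505 in the Vector control libraries. It averaged 36.3 ± 2.20 CPM in Malt1-WT and 76.9 ± 3.58 CPM in Vector control (SD, n = 3 each). The log2 fold change was -1.08 (SE 0.055, 95% interval -1.19 to -0.97, edgeR adjusted p = 1.51e-23), a 2.12-fold lower level. All Malt1-WT libraries were below all Vector control libraries. In bulk RNA, fewer cells that express a gene and less of its RNA per cell cannot be told apart.

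Notch2, by far the most abundant of the 4 receptor genes, had 5190, 6121 and 5081 counts in Malt1-WT, against 4986, 5389 and 5432 in Vector control. After scaling, this was 298 ± 7.65 CPM in Malt1-WT and 270 ± 5.30 CPM in Vector control (SD, n = 3 each). The log2 fold change of 0.14 (SE 0.031, edgeR adjusted p = 1.05e-04) passed the test but is a small difference. With library totals as the only scaling it was 0.06 (adjusted p = 0.0666) and no longer passed.

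The other two receptor genes were higher in Malt1-WT and much less abundant. Notch4, a receptor gene known mainly from endothelium and, in mouse mammary tumours, as a site of viral insertion, had 96, 133 and 111 counts in Malt1-WT, against 63, 70 and 47 in Vector control. Its mean was 6.17 ± 0.694 CPM in Malt1-WT and 3.08 ± 0.647 CPM in Vector control (SD, n = 3 each), a log2 fold change of 1.00 (SE 0.172, edgeR adjusted p = 1.36e-06). Notch3, the receptor gene typical of vascular smooth muscle and pericytes, had 20, 24 and 30 counts in Malt1-WT and 2, 6 and 10 in Vector control. Its log2 fold change was 2.12 (SE 0.437, 95% interval 1.24 to 2.99, edgeR adjusted p = 3.68e-05). The wide interval of Notch3 comes with a level of 1.36 ± 0.346 CPM in Malt1-WT and 0.301 ± 0.194 CPM in Vector control (SD, n = 3 each).

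Levels of different genes were compared per length, as TMM-scaled CPM per kilobase of annotated exon. In Malt1-WT the order was Notch2 (27.6 ± 0.71), Hes1 (6.96 ± 0.556), Dll1 (4.44 ± 0.237), Jag1 (2.96 ± 0.032), Notch1 (2.55 ± 0.155), Dll4 (1.31 ± 0.0962), Notch4 (0.765 ± 0.0861), Notch3 (0.168 ± 0.0428) and Jag2 (0.0857 ± 0.0499 CPM per kilobase, SD, n = 3 each). Notch3 and Jag2 overlapped between libraries, and Jag1 and Notch1 changed places when the longest transcript was used as the length (3.07 and 3.82 CPM per kilobase). In Vector control the order was Notch2 (25 ± 0.491), Hes1 (10.6 ± 0.849), Notch1 (5.4 ± 0.251), Dll1 (2.07 ± 0.158), Jag1 (1.92 ± 0.177), Notch4 (0.383 ± 0.0803), Jag2 (0.0805 ± 0.0158), Dll4 (0.0444 ± 0.0324) and Notch3 (0.0372 ± 0.0239 CPM per kilobase, SD, n = 3 each). There Dll1 and Jag1 overlapped, as did Jag2 with Dll4 and Dll4 with Notch3. Notch1 thus ranked above Dll1 and Jag1 in Vector control and below both in Malt1-WT by exon length.

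Summed over the 4 receptor genes, the level per length was 31.1 ± 0.946 CPM per kilobase in Malt1-WT and 30.9 ± 0.722 in Vector control (SD, n = 3 each), a difference smaller than the spread between libraries. With the longest transcript as the length the sums were 33.3 ± 1.06 in Malt1-WT and 34.3 ± 0.861 in Vector control (SD, n = 3 each), the opposite order, and the libraries overlapped with either length. Notch2 held 88.8% ± 0.529 of this sum in Malt1-WT and 81.1% ± 0.547 in Vector control, and Notch1 8.19% ± 0.252 and 17.5% ± 0.43 (SD, n = 3 each). With the longest transcript as the length, Notch1 held 11.5% in Malt1-WT and 23.6% in Vector control. Summed over the 4 ligand genes, the level was 8.80 ± 0.284 CPM per kilobase in Malt1-WT and 4.12 ± 0.355 in Vector control (SD, n = 3 each), with no overlap between libraries. Dll1 held a like share of the ligand sum in both groups, 50.4% ± 1.22 in Malt1-WT and 50.3% ± 0.597 in Vector control. Dll4 held 14.9% ± 1.14 in Malt1-WT and 1.04% ± 0.693 in Vector control, and Jag1 33.7% ± 1.23 and 46.7% ± 0.426 (SD, n = 3 each).

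**Figure D3:**
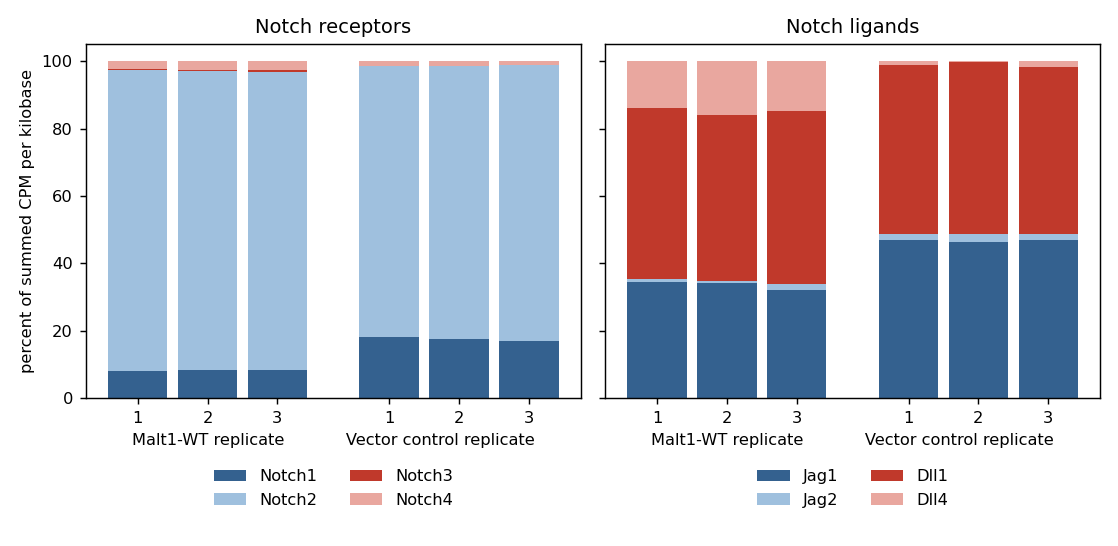
Share of each gene in the summed CPM per kilobase of the 4 receptor genes (left) and the 4 ligand genes (right), in percent, with 1 stacked bar per library and the Malt1-WT libraries left of the Vector control libraries. Notch1 is a smaller slice in Malt1-WT (8.19% against 17.5% on average), and Dll4 is visible as a slice of 13.9% to 16.1% in the Malt1-WT libraries, against 0.328% to 1.71% in Vector control.

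Hes1, a repressor that is the most widely used readout of Notch activity, was lower in Malt1-WT. It had 275, 263 and 240 counts in the Malt1-WT libraries, against 366, 428 and 473 in the Vector control libraries. The mean was 14.2 ± 1.13 CPM in Malt1-WT and 21.6 ± 1.73 CPM in Vector control (SD, n = 3 each). The log2 fold change was -0.61 (SE 0.089, 95% interval -0.79 to -0.43, edgeR adjusted p = 4.59e-08), and the groups did not overlap. Hey1, the other target among the 10 genes, had 0 counts in all 6 libraries. A count of 0 allows up to 3 counts, or 0.15 to 0.175 CPM in the Malt1-WT libraries and 0.147 to 0.166 CPM in the Vector control libraries, for counting error alone.

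Apart from Hes7, the rest of the HES and HEY family, together with the Notch feedback inhibitor gene Nrarp, was nearly silent. Of 9 such genes, 6 had any count and 1, Hes7, passed the filter. Hes7, known as a clock gene of somite formation, had 127, 135 and 101 counts in Malt1-WT and 56, 43 and 51 in Vector control. It was higher in Malt1-WT, with a log2 fold change of 1.36 (SE 0.173, edgeR adjusted p = 1.57e-09), opposite in sign to Hes1. Nrarp had 9 counts over the 3 Malt1-WT libraries and 8 over the 3 Vector control libraries, and Hes3, Hes5 and Hes6 had 0.

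The genes that handle the Notch signal were read from 7 further lists with 77 genes. Of 59 tested, 18 were higher and 24 lower, or 71.2% called, against 61.2% of all tested genes (31% higher and 30.2% lower). Their median log2 fold change was -0.05, and that of all tested genes was -0.00. The lists were not tested as lists. In the nuclear activation complex, 3 of 9 tested genes were higher and 2 lower, or 55.6% called, near the 61.2% of all tested genes. Rbpj, the DNA-binding subunit, had 10679, 12215 and 10395 counts in Malt1-WT and 6229, 6832 and 7181 in Vector control, or 605 ± 6.72 CPM and 345 ± 10.9 CPM (SD, n = 3 each). Its log2 fold change was 0.81 (SE 0.029, edgeR adjusted p = 9.03e-30). The coactivator genes Maml1 (0.81, SE 0.041) and Maml2 (0.79, SE 0.089) changed by nearly the same amount, and the acetyltransferase gene Kat2a was lower (-0.44, SE 0.034). The third Mastermind gene, Maml3, was at -0.14 (SE 0.065, edgeR adjusted p = 0.053) and did not pass, with adjusted p-values from 0.00301 to 0.181 under other settings.

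Genes of the corepressors that RBPJ and the HES proteins recruit had 9 of the 14 tested called lower, 2 higher and 3 not past, where 30.2% of all tested genes were called lower and 31% higher. Their median log2 fold change was -0.19. Of the lower calls, Ctbp2 (-0.15) was lost by DESeq2 and without Malt1-WT replicate 1 or 3 or Vector control replicate 1 or 3, with adjusted p-values of 0.0854 to 0.182. Tle1 (-0.21) was lost without Malt1-WT replicate 1 (adjusted p = 0.106) or Vector control replicate 3 (0.0801), which leaves 7 lower genes each time. Tle2, a Groucho-type corepressor, had 45, 71 and 50 counts in Malt1-WT, against 287, 283 and 323 in Vector control. Its log2 fold change was -2.34 (SE 0.136, edgeR adjusted p = 4.69e-21), a 5.05-fold lower level. The other 8 lower genes changed less, among them the deacetylase gene Hdac1 (-0.37), Ctbp1 (-0.34) and the RBPJ corepressor gene Spen (-0.31). The 2 higher genes were the demethylase gene Kdm1a (0.13) and Hdac3 (0.11, edgeR adjusted p = 0.0363). Hdac3 was no longer called without Malt1-WT replicate 1 (adjusted p = 0.453) or 3 (0.0536), nor without Vector control replicate 1 (0.099) or 3 (0.122), and with library totals alone neither Kdm1a (0.175) nor Hdac3 (0.557) was called.

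Receptor glycosylation genes, whose products modify the EGF repeats of Notch, had 6 of the 8 tested called lower and 1 higher, with a median log2 fold change of -0.26. Of all tested genes, 30.2% were called lower and 31% higher. The xylosyltransferase gene Xxylt1 (-0.42), the GlcNAc transferase gene Eogt (-0.45) and the radical fringe gene Rfng (-0.41) were lower. Lunatic fringe, Lfng, was higher, at 5.08 ± 0.398 CPM in Malt1-WT and 3.57 ± 0.652 CPM in Vector control (SD, n = 3 each), with a log2 fold change of 0.50 (SE 0.171, edgeR adjusted p = 0.00938). This call was lost without Malt1-WT replicate 1 (adjusted p = 0.0528) and without Vector control replicate 3 (0.0558). Among the lower calls, the glucosyltransferase gene Poglut1 (-0.11) was lost by DESeq2 and without Malt1-WT replicate 2 or Vector control replicate 2 or 3, with adjusted p-values of 0.0509 to 0.104.

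Among the proteases that cut the receptor, 9 were tested, of which 2 rose, 2 fell and 5 did not pass, or 44.4% called, against 61.2% of all tested genes. Furin, which cuts the Notch precursor in the Golgi, averaged 265 ± 8.52 CPM in Malt1-WT and 142 ± 5.51 CPM in Vector control (SD, n = 3 each), a log2 fold change of 0.90 (SE 0.035, edgeR adjusted p = 2.18e-28). The sheddase gene Adam10 was lower (-0.50, SE 0.037), and Adam17, a related sheddase, was higher (0.32, SE 0.031). Ncstn, which encodes the gamma-secretase subunit nicastrin, was at 0.05 (edgeR adjusted p = 0.566) and did not pass, with a 95% interval of the log2 fold change from -0.10 to 0.20. Aph1b, another subunit gene, was at -0.43 (edgeR adjusted p = 0.0484) and was not called without Malt1-WT replicate 1 (0.278) or 3 (0.151), without Vector control replicate 1 (0.114) or 2 (0.126), or by DESeq2 (0.254).

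In the list for ubiquitination and endocytosis, which holds ligases and adaptors that act on ligands or receptors, all 17 were tested, and 9 rose, 5 fell and 3 did not pass, or 82.4% called, against 61.2% of all tested genes. Dtx3l, a Deltex-like ligase gene also known for its part in the interferon response, averaged 202 ± 3.91 CPM in Malt1-WT and 87.4 ± 2.79 CPM in Vector control (SD, n = 3 each), a log2 fold change of 1.21 (SE 0.037, edgeR adjusted p = 9.68e-33). Mib2, which encodes a ligase that drives ligand endocytosis, was higher as well (0.93, SE 0.069). Neurl1b, another ligand ligase gene, had 3, 3 and 3 counts in Malt1-WT, against 13, 18 and 11 in Vector control. Its log2 fold change was -2.09 (SE 0.550, edgeR adjusted p = 9.36e-04). It reached the filter's minimum in 0 Malt1-WT libraries, so it had to be lower in Malt1-WT to be tested. The calls counted above include it. Dtx1, a Notch target gene in lymphocytes, had 5, 21 and 18 counts in Malt1-WT and 10, 5 and 6 in Vector control, and the groups overlapped. Its call (1.13, edgeR adjusted p = 0.0401) was lost without Malt1-WT replicate 2 (0.204) or 3 (0.182), without Vector control replicate 2 (0.146) or 3 (0.121), by DESeq2 (0.111), without a filter (0.081), with library totals alone (0.0552) and with the replicate number as a block (0.0595). The groups also overlapped for Dtx3 (0.18), whose call was lost with library totals alone (adjusted p = 0.135). It was also lost on leaving out Malt1-WT replicate 1 or 2, or Vector control replicate 2 or 3 (0.0508 to 0.0626). Of 8 other DSL-type and related ligand genes, 1 was tested, Mfap5, which did not pass (log2 fold change -0.43, edgeR adjusted p = 0.232).

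**Figure D4:**
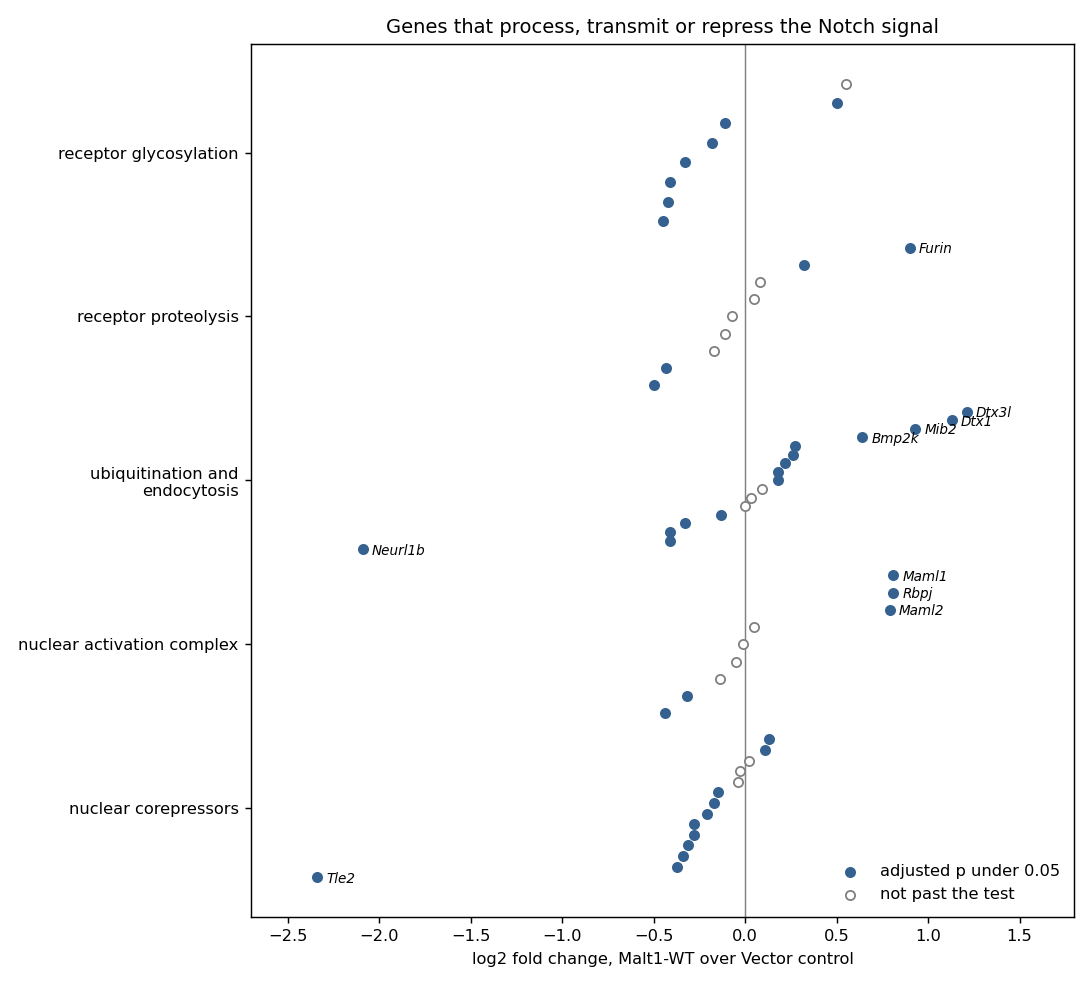
Log2 fold change of Malt1-WT over Vector control for the tested genes of 5 Notch pathway lists, 1 point per gene, ordered by value within a list. Filled points passed the edgeR test at an adjusted p under 0.05. Rbpj, Maml1 and Maml2 stand together at 0.79 to 0.81, and Tle2 (-2.34) and Neurl1b (-2.09) stand apart at the left. Neurl1b had to be lower in Malt1-WT to be tested.

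Dll4 and Notch4 are genes of the endothelium and Notch3 of pericytes, so markers of these cells were read in the same libraries. Of 9 endothelial markers 7 had any count, and their summed level was 12.2 to 13 CPM in Malt1-WT and 5.97 to 7.02 CPM in Vector control, most of it Pecam1. Pecam1 was higher in Malt1-WT (533 and 279 counts over the 3 libraries of a group, log2 fold change 1.02, edgeR adjusted p = 4.78e-09), as was Esam (1.13, adjusted p = 0.00123). Emcn and Cldn5 were at 0 in every library, Erg had 1 count in all, and Cdh5, Kdr, Tek and Tie1 stayed below 1 CPM. In that order, these last genes had 33, 11, 3 and 3 counts over the Malt1-WT libraries. Over the Vector control libraries they had 20, 6, 3 and 14. Of 7 pericyte and smooth muscle markers 6 had any count, and their summed level was 251 to 267 CPM in Malt1-WT and 177 to 190 CPM in Vector control, most of it Pdgfrb. Cspg4 was higher in Malt1-WT (384 and 167 counts over the 3 libraries of a group, log2 fold change 1.28, edgeR adjusted p = 1.15e-08), as was Pdgfrb (0.57), and Acta2 was lower (-0.18, adjusted p = 0.0242). Kcnj8 was at 0. Rgs5, Des and Myh11 had 5, 0 and 2 counts over the Malt1-WT libraries and 20, 2 and 10 over the Vector control libraries. Of 9 leukocyte markers 8 had any count, with summed levels of 27.3 to 31.6 CPM in Malt1-WT and 21.9 to 25.4 CPM in Vector control, and Tyrobp was at 0. Of these, 4 were tested and went both ways. Adgre1 had 81 counts over the 3 Malt1-WT libraries and 3 over the 3 Vector control libraries (edgeR adjusted p = 1.97e-09). It was under the filter's minimum in every Vector control library, so it had to be higher in Malt1-WT to be tested. Cd68 was also higher (787 and 264 counts, log2 fold change 1.67). Lyz2 was lower (41 and 221 counts, log2 fold change -2.33), as was Fcer1g (671 and 870 counts, -0.28). What part other cell types have in the Notch values was not tested.

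The 3 genes whose values over the 6 libraries were closest to those of Dll4 were Sntb1, Susd2 and Lcp2. Closeness was the Euclidean distance of log2 CPM, each gene set relative to its own Vector control mean, over 10249 candidate genes averaging 1 or more in log2 CPM. The distances were 0.665 for Sntb1, a syntrophin gene, 0.827 for Susd2, a surface protein gene, and 0.86 for Lcp2, an adaptor gene of immune receptor signalling. Sntb1 had 85, 89 and 78 counts in Malt1-WT and 2, 2 and 4 in Vector control. Susd2 had 170, 187 and 184 counts in Malt1-WT and 5, 2 and 10 in Vector control, and Lcp2 had 584, 720 and 685 and 36, 25 and 31. With 2 groups of libraries, any gene with a like fold change comes out as close.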

How the data were processed

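Total RNA was sequenced as paired-end reads from directional libraries, per the labels' protocols. The submitters' processing notes name featureCounts 1.6.3, STAR 2.7.3a and Trim Galore 0.6.0, and the build GRCm38.p6 (mm10). The sources used here do not give the annotation or the strand setting of the counting. Reads of overlapping genes thus cannot be assigned with certainty. The deposited table holds raw counts with 1 column for each library, as the file headers say. It also holds the authors' log2 fold change and log2 mean expression, a score (a t statistic), and p-values and adjusted p-values of the authors' own comparison, per the file headers.

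Counts were tested in edgeR 4.0.16 (R 4.3.3), as Malt1-WT against Vector control in all 6 libraries. Genes were kept by filterByExpr with a minimum count of 10, and TMM factors were 0.973 to 1.030. The robust quasi-likelihood fit had no block, and p-values were adjusted by the Benjamini-Hochberg method over 13594 genes. The SE is the log2 fold change divided by the square root of the F statistic, and 95% intervals use its t quantile. Gene positions and lengths come from GENCODE M21 on GRCm38, and promoter windows from RefSeq on GRCm38.p6. The test was also run on simulated counts, and the outcome is not given here.

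Alternatives were other scalings, DESeq2 1.42.0, other filters, the robust option off, the replicate number as a block, leaving out each library in turn, and the longest transcript as length. The genes and lists were chosen with earlier results of these data known. The genes named are Malt1, the 10 Notch genes, up to 4 called genes with the largest change per further list, and the 3 genes closest to the most changed Notch gene. Mfap5, Maml3, Kdm1a, Hdac3, Ctbp2, Tle1, Poglut1, Dtx3, Ncstn, Nrarp, Hes3, Hes5, Hes6, the overlapping transcripts and the marker genes were named after their values were seen.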

Additional observations from a re-analysis of the deposited data

How the results depend on the processing

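For the 8 tested Notch genes, direction held under all 14 alternative fits, and the call held in all but 1, Notch2 with library totals only (0.06, adjusted p = 0.0666). Notch3 and Dll4 reached the filter's minimum only in Malt1-WT, so where that filter was used their higher direction was fixed in advance. The log2 fold change ranged from 4.39 to 5.52 for Dll4, 1.75 to 2.66 for Notch3 and -1.16 to -1.04 for Notch1. With library totals only, 4 receptor proteolysis genes and 4 nuclear activation genes were lower, and 0 corepressor genes higher. DESeq2 gave 1 lower proteolysis gene and 1 higher corepressor gene, and upper quartile scaling or no filter 1 higher corepressor gene each. Leaving out single libraries gave 0 to 1 higher glycosylation genes, 1 to 2 lower proteolysis genes and 1 to 2 higher corepressor genes. The cause was not tested.

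With the longest transcript as length, levels in CPM per kilobase were, for Malt1-WT and then Vector control, 3.82 and 8.11 for Notch1, 28.3 and 25.7 for Notch2, 0.936 and 0.468 for Notch4, 5.23 and 2.44 for Dll1 and 9.66 and 14.7 for Hes1. Jag1 was at 3.07 in Malt1-WT and Jag2 at 0.11 in Vector control. These follow from the shorter length.

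With the replicate number as a block, 4134 genes were higher and 4034 lower, against 4210 and 4110 without it, and of the Notch genes 6 were higher and 2 lower, as without it. Deviations of libraries with the same number correlated at -0.03, -0.02 and 0.02, so no strong shared effect of the number was seen. With 3 libraries per group, this does not settle whether equal numbers mark a common culture or preparation. Depth limits Notch3, Jag2, Hey1 and the Vector control value of Dll4.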
